A study of Mus musculus with 14 samples.

Results

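Transcripts of 8 genes that mark the epithelium of the bile ducts, Sox9, Krt7, Krt19, Epcam, Spp1, Pkhd1, Bicc1 and Anxa13, were followed in whole mouse liver across Pkd1 genotypes. The members were the rows of the deposited count table that carry these gene names. All 8 were found, each in 1 row, among 57180 genes in the table, and all 8 passed the filter on low counts that kept 16201 genes. Livers came from 14 littermate mice on normal chow: 6 labelled WT Cre, 4 labelled Pkd1 Het Cre and 4 labelled Pkd1 Homo Cre, called WT, Het and Homo here. Every label carries Cre, the controls included. The labels used here give neither the Pkd1 allele nor the promoter that drives Cre, nor the cells in which Pkd1 was altered, nor age or sex. Each library is 1 numbered mouse.

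Cholangiocytes line the bile ducts and are a small minority of liver cells beside hepatocytes. They carry a primary cilium, in whose membrane polycystin 1, the product of Pkd1, and fibrocystin, the product of Pkhd1, are found, and loss of polycystin function in these cells is known for liver cysts. Their identity rests on transcription factors such as SOX9 and on Notch signalling in the developing ductal plate. They are recognised by keratins 7 and 19 and the surface adhesion protein EPCAM, which hepatocytes mostly lack. Some of the 8 genes are not exclusive to ducts. Keratins 7 and 19 are also made by the mesothelium that covers the liver, Spp1 also by macrophages, and Sox9 also by some hepatocytes beside the portal tract.

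No member was called different between genotypes. Of the 8 genes, 0 passed edgeR's quasi-likelihood test (adjusted p under 0.05) in Homo against WT, in Het against WT or in Homo against Het, where 0.222%, 0.0556% and 0.0309% of the 16201 genes tested passed. At an unadjusted p under 0.05 the members numbered 0, 1 (Sox9) and 1 (Anxa13), against 4.73%, 4.67% and 5.1% of all genes tested. DESeq2 also called 0 of the 8 in each comparison. The CPM of the groups did not overlap for 0, 0 and 1 members (Anxa13), against 1.15%, 1.2% and 2.94% of all genes tested. In Homo over WT 3 members had a fold above 1 and 5 below, in Het over WT 5 and 3, and in Homo over Het 4 and 4. The medians of the 8 log2 fold changes were -0.060, 0.089 and -0.046, beside medians of 0.0022, -7.6e-05 and 0.0018 over all genes tested. The Het and Homo comparisons share the WT libraries.

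Depth and the level of Pkd1 in each genotype were read first. The 6 WT libraries held 25238140 to 40925973 counts each, the 4 Het libraries 22833853 to 26245475 and the 4 Homo libraries 18573739 to 28431875. Levels are given as CPM, a gene's counts relative to its library's total after TMM scaling. Pkd1 lay between 31.4 and 37.7 CPM in WT, between 28.1 and 36.7 CPM in Het and between 23.1 and 26.4 CPM in Homo. Its log2 fold change in Homo over WT was -0.46 (SE 0.0802, edgeR adjusted p = 0.0246), and the 4 Homo libraries lay below all 6 WT libraries. Homo and WT did not overlap for 1.15% of all genes tested. In Het over WT the log2 fold change of Pkd1 was -0.11 (SE 0.0791, edgeR adjusted p = 0.998) and the groups overlapped. Its level therefore did not separate Het from WT. Reads were summed over all exons of Pkd1, and which of them the mutation removes is not in the labels.

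The members fell into a well-counted and a sparse set. Spp1 had between 352 and 1411 counts per library, Pkhd1 between 224 and 572, Bicc1 between 95 and 252 and Sox9 between 81 and 340. Krt19 had only 11 to 32 counts, Epcam 9 to 48, Krt7 3 to 29 and Anxa13 2 to 24. Under 10 counts were seen for Anxa13 in 7 of 14 libraries, for Krt7 in 6 and for Epcam in 2. The 4 sparse genes together held between 37 and 120 counts per library. Their mean levels lay at the 3.81st (Anxa13), 10.4th (Krt7), 11.9th (Epcam) and 14.7th (Krt19) percentile of the genes tested, while Spp1 lay at the 72.7th.

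To compare levels between genes, mean CPM was divided by the length of the longest transcript in the basic set of the GENCODE M21 annotation. Per kilobase, Spp1 was highest at 16.4 ± 6.77 CPM (SD, n = 14), and its range of 9.15 to 38.3 lay above that of each other member. Sox9 followed at 1.52 ± 0.486, Bicc1 at 1.03 ± 0.123 and Pkhd1 at 0.941 ± 0.112 CPM per kilobase. Below them came Krt19 at 0.46 ± 0.153, Epcam at 0.296 ± 0.123, Anxa13 at 0.294 ± 0.169 and Krt7 at 0.132 ± 0.0751. From Sox9 down, each gene's range over the libraries overlapped that of the next, and Bicc1 and Pkhd1 traded places when all annotated exons were counted (0.748 and 0.85). Bulk liver cannot tell fewer cells of a type from less RNA per cell.

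**Figure D1:**
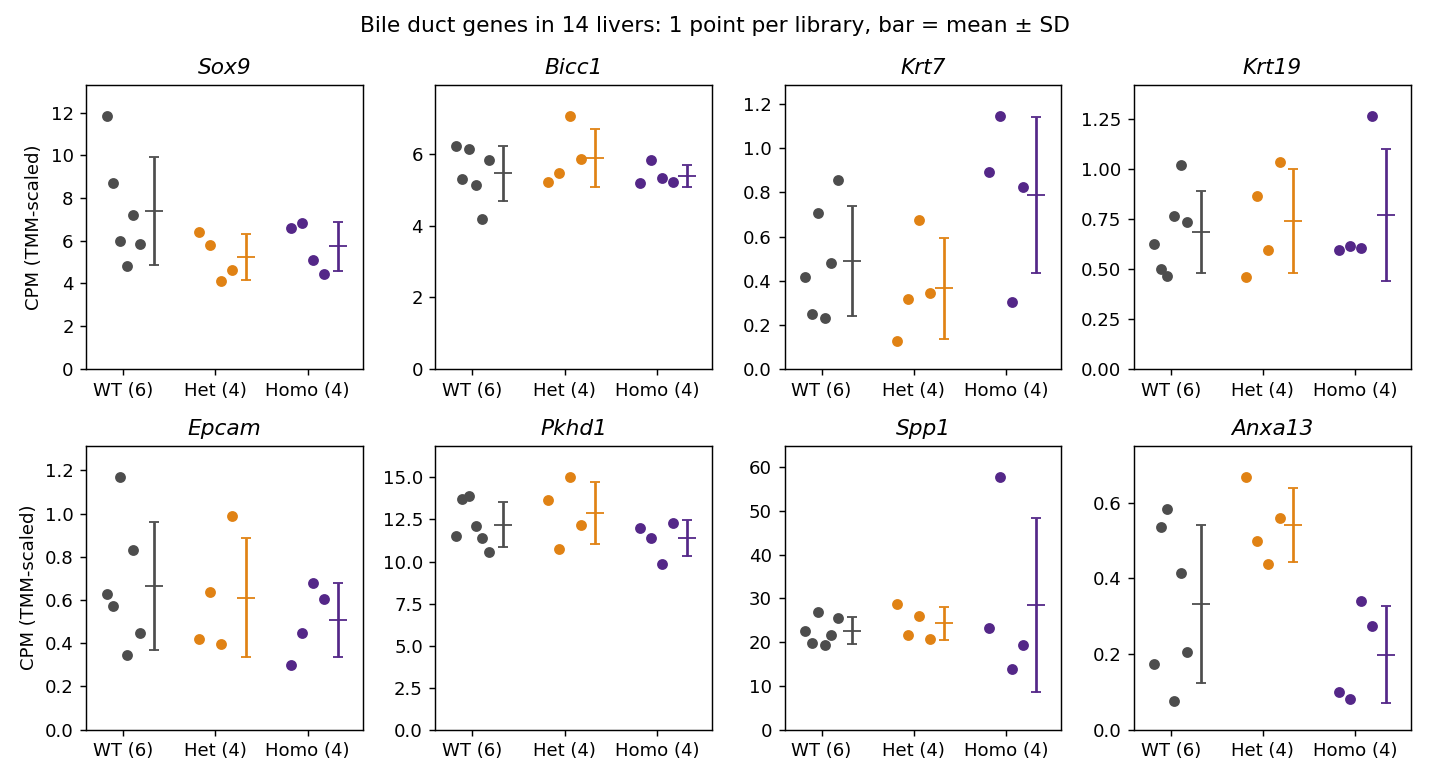
Levels of the 8 bile duct genes in CPM (vertical axes, TMM-scaled, each from 0) in 6 WT, 4 Het and 4 Homo livers, with 1 point per library and the mean ± SD beside each group. The groups overlap in every panel except Anxa13 between Het and Homo, and the Spp1 point at 57.7 CPM is the library Homo 2.

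Promoter sequence from RefSeq (GRCm38.p6, a different build from the GRCm39 named in the submitters' processing notes) was matched by symbol for 4 of the 8 members, Pkhd1, Spp1, Krt7 and Epcam. The 250 bases before the start site are shown for 2 of them. Pkhd1 is shown because its level had the lowest coefficient of variation between livers. Krt7 is shown as a sparse and variable gene with a promoter of another base composition. Both run 5′ to 3′, with each CG in capitals. The Pkhd1 window is chr1:20618058-20618307 (minus strand) and the Krt7 window chr15:101412153-101412402 (plus strand).
Pkhd1: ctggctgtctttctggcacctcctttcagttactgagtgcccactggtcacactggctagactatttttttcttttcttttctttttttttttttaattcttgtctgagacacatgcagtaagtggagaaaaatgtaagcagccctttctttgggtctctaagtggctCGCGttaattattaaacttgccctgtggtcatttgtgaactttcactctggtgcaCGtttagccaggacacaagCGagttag
Krt7: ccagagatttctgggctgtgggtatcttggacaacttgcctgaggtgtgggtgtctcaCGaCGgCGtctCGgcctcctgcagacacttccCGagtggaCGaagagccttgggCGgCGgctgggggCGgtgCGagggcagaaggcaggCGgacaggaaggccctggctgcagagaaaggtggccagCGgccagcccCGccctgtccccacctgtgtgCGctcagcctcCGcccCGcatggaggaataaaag
Over both strands, the letters GTGGGAA of the Notch effector RBPJ (in 5.42% of 32851 promoter windows of this length), GGAATG of TEAD (12.6%), ATCAAT of ONECUT (6.72%) and AACCGG followed by TT of GRHL (0.116%) were in none of the 5 windows of the 4 genes, and TATAAA (12.4%) was in 1 of 2 Spp1 windows. A match describes letters only. G and C made up 42.0% of the Pkhd1 window and 66.0% of the Krt7 window, against a median of 52.4% over all windows, and CG occurred 4 and 16 times against a median of 6.

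Sox9 (ENSMUSG00000000567, chromosome 11) encodes the transcription factor that marks the ductal plate and adult duct cells. In WT its lowest, median and highest levels were 4.79, 6.60 and 11.8 CPM. In Het the libraries stood at 6.43, 5.78, 4.10 and 4.65 CPM, and in Homo at 6.60, 6.82, 5.10 and 4.45 CPM. The 2 highest livers of all were WT 1 and WT 2, no Het liver reached the WT median, and the groups overlapped. The fold was 0.709 in Het over WT (95% interval 0.504 to 0.997, edgeR adjusted p = 0.998, unadjusted 0.0482) and 0.78 in Homo over WT (0.556 to 1.09, edgeR adjusted p = 0.998). Without WT 1 these log2 fold changes went from -0.50 to -0.32 and from -0.36 to -0.18. Homo over Het had a fold of 1.10 (0.758 to 1.60).

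Bicc1 (ENSMUSG00000014329, chromosome 10) encodes an RNA-binding protein whose loss causes kidney cysts in mice. Its WT levels had a lowest value of 4.18, a median of 5.57 and a highest value of 6.22 CPM. The Het livers stood at 5.22, 5.46, 7.05 and 5.86 CPM, and the Homo livers at 5.18, 5.84, 5.33 and 5.22 CPM. All 4 Homo livers fell inside the WT range, and only Het 3 lay above it. The Homo livers, at 5.39 ± 0.307 CPM (SD, n = 4), had the lowest coefficient of variation of any member in any genotype. This coefficient, 5.69%, lay below the 8.78% that counting error alone would give. The fold was 0.986 in Homo over WT (95% interval 0.818 to 1.19), 1.08 in Het over WT (0.896 to 1.30) and 0.914 in Homo over Het (0.745 to 1.12), so a change of 1.5-fold lay outside all 3 intervals.

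Pkhd1 (ENSMUSG00000043760, chromosome 1) encodes fibrocystin, the ciliary protein altered in recessive polycystic kidney disease with duct malformation in the liver. The WT libraries ran from 10.5 through a median of 11.8 to 13.9 CPM. Het libraries held 13.6, 10.7, 15.01 and 12.1 CPM, and Homo libraries 12.0, 11.4, 9.86 and 12.3 CPM. Het 3 was the highest liver and Homo 3 the lowest, and every pair of groups overlapped. Folds were 0.933 in Homo over WT (0.794 to 1.10), 1.06 in Het over WT (0.9 to 1.24) and 0.883 in Homo over Het (0.74 to 1.05). Like Bicc1, Pkhd1 was measured tightly enough for its intervals to leave out a 1.5-fold change in each direction.

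Spp1 (ENSMUSG00000029304, chromosome 5) encodes osteopontin, a secreted phosphoprotein made by duct cells and by activated macrophages. WT livers ran from 19.3 through a median of 22.1 to 26.9 CPM. Het livers stood at 28.6, 21.6, 26.0 and 20.8 CPM, and Homo livers at 23.2, 57.7, 13.8 and 19.3 CPM. Homo thus held both the highest liver (Homo 2, 1411 counts) and the lowest (Homo 3, 365 counts), and its SD of 19.8 CPM stood beside 3.10 in WT and 3.69 in Het. The fold in Homo over WT was 1.26 (0.824 to 1.92, edgeR adjusted p = 0.998). Without Homo 2 the log2 fold change went from 0.33 to -0.27 against WT and from 0.23 to -0.37 against Het. In Het over WT the fold was 1.07 (0.699 to 1.64).

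In Homo 2 the summed level of the other members did not stand out from the other livers as Spp1 did. Spp1 made up 68.6% of the summed counts of the 8 genes there, against 38.3% to 51.5% in the other 13 libraries. Without Spp1 the members summed to 26.4 CPM in Homo 2, inside the WT range of 23.4 to 31.4 CPM. That was the highest sum of the Homo livers, which ran from 22.2 to 26.4 CPM. Of the other 7 members only Krt7 also had its highest value in Homo 2. Among the Homo livers alone, Sox9 (6.82 CPM) and Bicc1 (5.84 CPM) were highest there too. Of 12 macrophage markers 4 were highest in Homo 2, C1qb, Timd4, Gpnmb and Trem2. Gpnmb had too few counts to be tested (at most 17 per library), and Trem2 had at most 28 per library. The share of all genes that were highest in Homo 2 is not given here. The macrophage list summed to 262 CPM in Homo 2, within the range of 256 to 276 CPM in Homo livers, and to 219 to 262 CPM in WT and 214 to 261 CPM in Het. Of 11 macrophage genes tested, edgeR and DESeq2 called 0 in each comparison. A fold above 1 was seen for 10 in Homo over WT (4 at an unadjusted p under 0.05), 7 in Het over WT (0) and 11 in Homo over Het (2). Their median log2 fold changes were 0.22, 0.013 and 0.19, beside 0.0022, -7.6e-05 and 0.0018 over all genes tested. Among all genes tested, edgeR called 0.222%, 0.0556% and 0.0309% in the same order of comparisons. The unadjusted shares were 4.73%, 4.67% and 5.1%. The part of macrophage RNA in the Spp1 level was not tested.

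Keratins 7 and 19 form intermediate filaments of simple epithelia, type II and type I. Krt7 (ENSMUSG00000023039, chromosome 15) had a lowest, median and highest level of 0.23, 0.448 and 0.858 CPM in WT. It stood at 0.125, 0.318, 0.677 and 0.345 CPM in Het and at 0.891, 1.14, 0.302 and 0.823 CPM in Homo. In Homo 3 of 4 livers lay above every Het liver, while Homo 3 lay below the Het median. The fold in Homo over Het was 2.13 (0.957 to 4.73, edgeR adjusted p = 0.965, unadjusted 0.0621), in Homo over WT 1.60 (0.8 to 3.20) and in Het over WT 0.751 (0.356 to 1.58). Behind the lowest of these values are 3 counts (Het 1), whose exact Poisson interval of 0.0258 to 0.366 CPM covers counting error only.

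Krt19 (ENSMUSG00000020911, chromosome 11) lay between 0.462 and 1.02 CPM in WT, with a median of 0.68. The Het values were 0.459, 0.864, 0.597 and 1.03 CPM, and the Homo values 0.594, 0.613, 0.605 and 1.26 CPM. Homo 4, the library with the lowest total, was the highest liver, and the other 3 Homo livers lay below the WT median. The folds were 1.11 in Homo over WT (0.678 to 1.81), 1.08 in Het over WT (0.66 to 1.76) and 1.03 in Homo over Het (0.597 to 1.77). Krt7 and Krt19, although both duct keratins, did not rank the livers alike (Pearson r = 0.17, Spearman rho = 0.13, n = 14, permutation p = 0.565 and 0.67, both adjusted values 0.82 or above over 28 pairs). Without the 2 libraries farthest from the Krt7 median r was 0.033. Both genes are sparse, so counting error could hide a shared pattern.

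Mesothelial markers were read beside the keratins. All 7 were detected, none was at 0 in all libraries, and they summed to 1.05 to 5.79 CPM in WT, 1.59 to 7.68 CPM in Het and 3.93 to 6.80 CPM in Homo. Of the 6 tested, 0 were called by edgeR in any comparison, with 0 at an unadjusted p under 0.05 and 0 by DESeq2. Among all genes tested, edgeR called 0.222% in Homo against WT, 0.0556% in Het against WT and 0.0309% in Homo against Het. The unadjusted shares were 4.73%, 4.67% and 5.1%. The part of mesothelial RNA in the Krt7 and Krt19 levels was not tested. Of 10 pancreatic genes, Prss2 and Ctrb1 were at 0 in all 14 libraries, and 2 had enough counts to be tested. These 2 were Cela1, at a mean of 17.2 CPM, and Cela2a, at 0.451 CPM.

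Epcam (ENSMUSG00000045394, chromosome 17) encodes an epithelial adhesion molecule of duct and progenitor cells. It is the member that lies on chromosome 17, where Pkd1 also lies and where 28 of the 34 placed genes called in Homo against WT were found, beside 753 of all 15610 placed genes tested. WT livers ran from 0.345 through a median of 0.599 to 1.17 CPM. The Het livers stood at 0.417, 0.637, 0.398 and 0.991 CPM, and the Homo livers at 0.297, 0.449, 0.68 and 0.604 CPM. The highest liver was WT 3, which is also the deepest library, and the lowest was Homo 1. Folds were 0.749 in Homo over WT (0.418 to 1.34), 0.905 in Het over WT (0.51 to 1.61) and 0.827 in Homo over Het (0.434 to 1.58), each with an interval that spans more than a 2-fold range.

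Anxa13 (ENSMUSG00000055114, chromosome 15) encodes a membrane-binding annexin of polarised epithelia and was the sparsest member. Its lowest, median and highest WT levels were 0.0767, 0.31 and 0.584 CPM. It stood at 0.668, 0.5, 0.438 and 0.56 CPM in Het and at 0.099, 0.0817, 0.34 and 0.274 CPM in Homo. All 4 Het livers lay above all 4 Homo livers, the single non-overlap among the 24 pairings of a member with a comparison. Over all genes tested, 2.94% did not overlap between Homo and Het. The fold in Homo over Het was 0.365 (0.153 to 0.87), with an edgeR adjusted p of 0.932 and an unadjusted p of 0.0259. When only the groups compared were fitted, Anxa13 did not pass the filter in Homo against Het or in Homo against WT. Those fits gave no value for it. The Het livers rested on 11 to 16 counts and the Homo livers on 2 to 9. WT spanned both groups, with 2 counts in WT 4 and 24 in WT 3, and the folds over WT were 1.59 in Het (0.77 to 3.29) and 0.581 in Homo (0.257 to 1.31). Anxa13 is annotated as a processed transcript rather than as protein-coding in GENCODE M21, with a tag for an error in the reference genome.

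**Figure D2:**
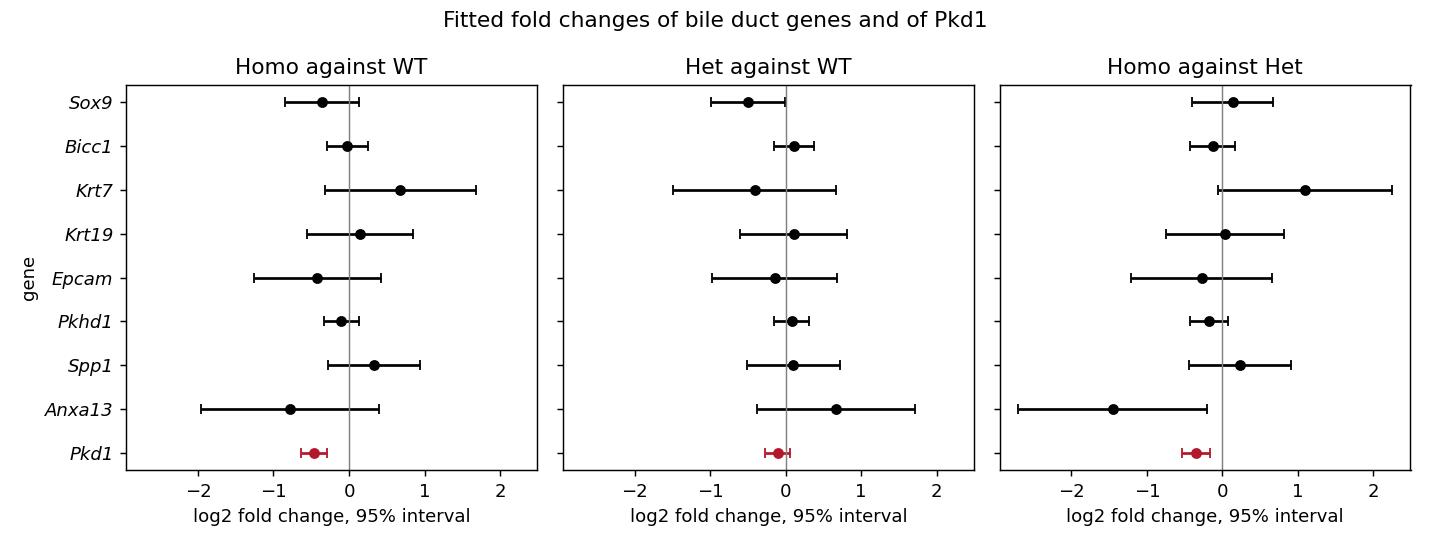
Fitted log2 fold changes (horizontal axes, bars are 95% intervals from the edgeR fit) of the 8 genes and, in red, of Pkd1, in the 3 comparisons of genotypes. Bicc1 and Pkhd1 have the narrowest intervals of the 8 genes, and Krt7 and Anxa13 the widest.

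The spread between livers was set beside the spread that counting alone would give, the root mean counting variance of CPM over the mean CPM. The livers are separate mice, so a spread above counting error includes whatever differs between mice and libraries. For Pkhd1 the coefficient of variation over the 14 livers was 11.9%, against 5.63% from counting, and for Bicc1 12.0% against 8.34%. Sox9 varied by 31.9% against 7.76%, and without WT 1 by 21.9%. Spp1 varied by 41.2% against 3.95%, a value carried by Homo 2: without that library it varied by 17.7%, and within WT and Het by 13.7% and 15.2%. Among the sparse genes Krt19 varied by 33.2% against 23.5%, Epcam by 41.4% against 25.03%, Krt7 by 56.9% against 26.8% and Anxa13 by 57.5% against 33%. Leaving out any 1 library moved the value of no other member by 1.5 times or more.

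**Figure D3:**
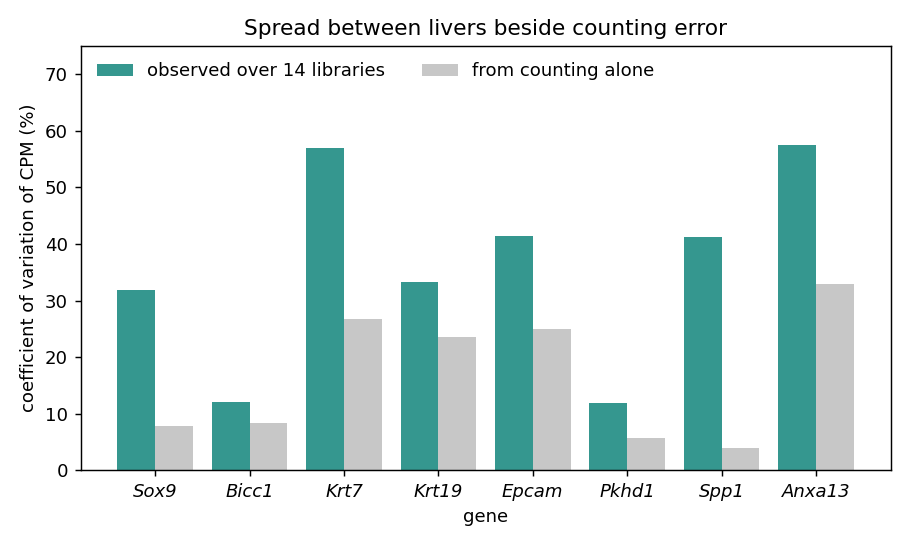
Coefficient of variation of CPM in percent (vertical axis) for each of the 8 genes, observed over the 14 libraries (green) and expected from counting alone (grey). The green bar of Spp1, at 41.2%, stands at 17.7% without the library Homo 2, and the grey bars are highest for Anxa13 and Krt7.

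No shared pattern of the 8 genes from liver to liver was found at this depth and number of livers. Of the 28 pairs, 12 correlated positively and 16 negatively over the 14 livers (log2 CPM), with a median Pearson r of -0.053. No pair passed a permutation test of Pearson or Spearman correlation after Benjamini-Hochberg adjustment (smallest adjusted p = 0.713 and 0.717). The highest was Epcam with Anxa13 (r = 0.60, permutation p = 0.0254, rho = 0.48, permutation p = 0.0846, adjusted p = 0.713 and 0.717), at 0.44 without the 2 libraries farthest from the Epcam median and 0.80 within WT (n = 6, exact permutation p = 0.0542). Krt7 with Spp1 stood at r = 0.46 over all livers (permutation p = 0.0891, rho = 0.41, permutation p = 0.145, adjusted p = 0.842 and 0.717). Within WT alone it stood at 0.95 (n = 6, exact permutation p = 0.0208, adjusted 0.583), and over all livers without Het 1 and Homo 2, the farthest from the Krt7 median, at 0.59. Epcam, Anxa13 and Krt7 are sparse, and both pairs are given as a description. Counting error also lowers the correlations of any pair that holds one of these genes or Krt19. A pattern shared with them could therefore have been missed.

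**Figure D4:**
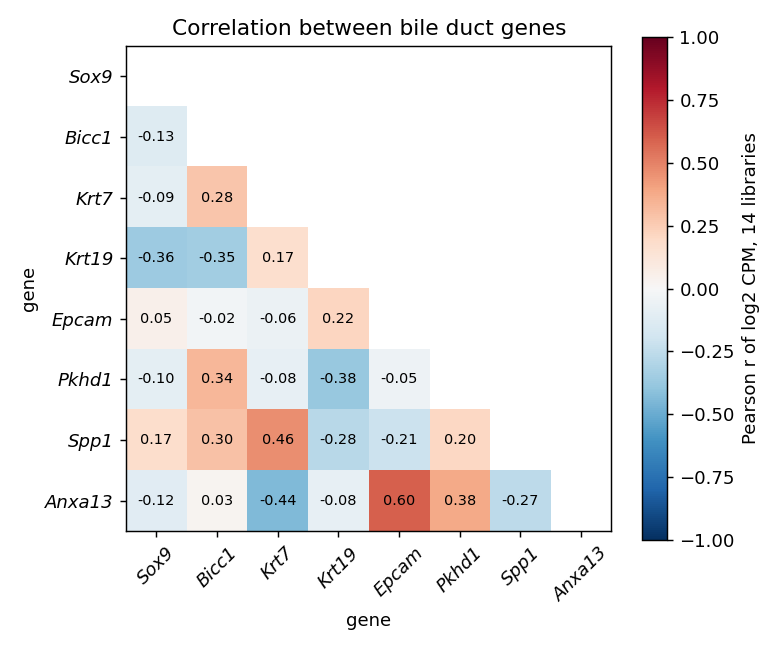
Pearson correlation of log2 CPM between each pair of the 8 genes over 14 libraries, with the value printed in each cell and colour from -1 (blue) to 1 (red). The highest cell is Epcam with Anxa13 at 0.60 and the lowest Krt7 with Anxa13 at -0.44.

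The genes closest in pattern to the 8 were ranked by Pearson r with the members' mean standardized log2 CPM over the 14 libraries. Among 16193 other genes the highest were Amd2 (r = 0.76, rho = 0.79), Dpt (0.76, 0.66), Acsl3 (0.76, 0.70), Cacna2d1 (0.75, 0.79) and Gm45606 (0.74, 0.76). These are the top values of many genes over few libraries and carry no test. Dpt, dermatopontin, is on the list of portal fibroblast markers, and like Krt7 and Spp1 it was highest in Homo 2. It was the only 1 of the 10 markers on that list to be highest there. The 8 of them that were ranked had a median r of 0.064 beside -0.0094 over all ranked genes. Of these 8, 5 had a positive r, and the lowest r was -0.25. Of 30 other cholangiocyte genes the closest was Cd24a, a surface glycoprotein, at rank 161 (r = 0.58), and the median r of the 30 was 0.058 beside -0.0094 over all ranked genes.

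Of 42 other genes used as cholangiocyte markers, 12 had too few counts to be tested, among them Krt23, Cldn4, Cldn6, Cldn7, Tspan8, Dmbt1, Fxyd3, Cftr, Sctr, Ggt1 and Gpbar1. The highest mean level among the 12 was 0.278 CPM (Krt23). Cftr, the chloride channel of duct secretion, had 49 counts in all 14 libraries together, and Sctr, the secretin receptor, had 13. The list also holds genes that hepatocytes express strongly, Clu (1041 CPM on average), Pigr (925 CPM), Onecut1 (268 CPM), Onecut2 (222 CPM) and Hhex (114 CPM), so its sum does not follow ducts. Among hepatocyte markers 10 of 10 were detected, summing to between 54362 and 84615 CPM, against 36.0 to 84.0 CPM for the 8 duct genes.

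Of the 30 cholangiocyte genes tested, edgeR called 0 in each comparison. At an unadjusted p under 0.05 there were 1 in Homo against WT, 2 in Het against WT and 4 in Homo against Het. The shares over all genes tested were 0.222%, 0.0556% and 0.0309% called, and 4.73%, 4.67% and 5.1% unadjusted. In Homo over WT 14 had a fold above 1 and 16 below (median log2 -0.025), in Het over WT 22 and 8 (0.13), and in Homo over Het 10 and 20 (-0.11). DESeq2 called 1, Tff3, in Homo against WT and none elsewhere. Tff3 encodes a trefoil peptide of mucus-secreting epithelia and lies on chromosome 17. It stood between 7.54 and 16.3 CPM in WT, between 2.30 and 11.6 CPM in Het and between 1.09 and 5.76 CPM in Homo, where no liver reached the lowest WT value. Homo and WT did not overlap for 1.15% of all genes tested. Its log2 fold change in Homo over WT was -2.22 (SE 0.471, edgeR adjusted p = 0.11, DESeq2 adjusted p = 0.00333), and over the alternatives run the adjusted p went from 0.00301 to 0.451.

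Other genes of the list with small p did not pass. Slc10a2, the bile acid transporter that retrieves bile acids in ducts and ileum, was at 24.0 ± 5.36, 36.7 ± 3.99 and 24.8 ± 12.3 CPM in WT, Het and Homo (SD, n = 6, 4 and 4), with a log2 fold change of 0.61 in Het over WT (edgeR adjusted p = 0.998) and every Het liver above every WT liver. Het and WT did not overlap for 1.2% of all genes tested. Krt8, a keratin of hepatocytes and ducts, stood at 108 ± 9.56, 126 ± 14.3 and 100.1 ± 20.1 CPM (Homo over Het log2 -0.34, edgeR adjusted p = 0.916). Hhex, a transcription factor of early liver and duct development, stood at 114 ± 61.5, 157 ± 52.4 and 70.9 ± 38.4 CPM (Homo over Het log2 -1.15, edgeR adjusted p = 0.93). Cd24a stood at 1.61 ± 0.223, 2.17 ± 0.643 and 1.44 ± 0.427 CPM (Homo over Het log2 -0.60, edgeR adjusted p = 0.958). Pkd2, the channel partner of polycystin 1, was also among the smallest p in Het against WT (log2 -0.60, SE 0.275, edgeR adjusted p = 0.998).

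Notch signalling patterns the ductal plate. Of 16 Notch genes 14 were tested and edgeR called 0 in each comparison, with 0, 0 and 2 at an unadjusted p under 0.05 and 0 by DESeq2. Among all genes tested, edgeR called 0.222%, 0.0556% and 0.0309%, and 4.73%, 4.67% and 5.1% had an unadjusted p under 0.05. The ligand Jag1 was at 6.80 ± 1.46, 6.60 ± 1.26 and 6.90 ± 1.10 CPM in WT, Het and Homo, and the receptor Notch2 at 79.8 ± 9.14, 80.5 ± 5.41 and 75.4 ± 9.29 CPM (SD, n = 6, 4 and 4). The target Hes1 stood at 4.51 ± 1.67, 3.44 ± 1.49 and 6.61 ± 3.67 CPM (Homo over Het log2 0.95, edgeR adjusted p = 0.958). Nrarp, a feedback inhibitor of the pathway, stood at 0.645 ± 0.245, 0.375 ± 0.112 and 0.921 ± 0.488 CPM (Homo over Het log2 1.29, edgeR adjusted p = 0.916).

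Markers of cells that share the portal tract were read in the same way. Portal fibroblast markers, 10 of 10 detected, summed to 26.6 to 31.0 CPM in WT, 31.7 to 34.2 CPM in Het and 28.9 to 37.6 CPM in Homo. Gas6 led that sum, and the other 9 genes summed to 10.4 to 13.1, 12.4 to 14.3 and 11.8 to 15.6 CPM in the same order. Lymphocyte markers, 8 of 8 detected, summed to 6.88 to 16.2 CPM in WT, 18.4 to 20.3 CPM in Het and 18.6 to 26.4 CPM in Homo. That sum was mostly Cd3e, which lay between 3.93 and 14.2 CPM in WT, 15.5 and 18.8 CPM in Het and 15.5 and 23.3 CPM in Homo (edgeR adjusted p = 0.976 in Homo against WT and 0.998 in Het against WT). Homo and Het did not overlap WT for Cd3e, as for 1.15% and 1.2% of all genes tested. The other 7 genes summed to 1.17 to 2.95, 1.55 to 3.17 and 1.87 to 3.72 CPM, ranges that overlap. Stellate markers summed to 379 to 511, 378 to 529 and 442 to 479 CPM and endothelial markers to 324 to 361, 334 to 394 and 339 to 391 CPM in WT, Het and Homo. EdgeR called 0 of the 10 stellate genes (0, 2 and 2 at an unadjusted p under 0.05 in the same order of comparisons) and 0 of the 8 endothelial genes (1, 0 and 0). DESeq2 called 1 of them, the collagen gene Col1a1, higher in Het than in WT (DESeq2 adjusted p = 0.00106, edgeR adjusted p = 0.0925). No gene of the portal fibroblast and lymphocyte lists was called by edgeR or DESeq2 in any comparison, and at an unadjusted p under 0.05 there was 1 portal fibroblast gene in each comparison and 1 lymphocyte gene in Homo against WT. Among all genes tested, edgeR called 0.222% in Homo against WT, 0.0556% in Het against WT and 0.0309% in Homo against Het. The unadjusted shares were 4.73%, 4.67% and 5.1%. The 8 duct genes without Spp1 summed to 23.4 to 31.4 CPM in WT, 24.3 to 28.3 CPM in Het and 22.2 to 26.4 CPM in Homo, ranges that overlap in full or in part. The part of these other cells in the levels of the members was not tested.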

How the data were processed

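RNA was sequenced from whole liver of 14 mice. Per the labels' protocols, extraction used Trizol followed by RNeasy columns and library preparation a NuGen Ovation mouse kit. The authors deposited a table of estimated counts per gene, made with STAR and Salmon on GRCm39 per the submitters' processing notes. Tool versions, annotation release and strand setting: not given in the sources used here. Here the counts were rounded (6.36% to 8.59% of values per library were not whole, tolerance 0.01), filtered with filterByExpr (count minimum 10, total minimum 15), scaled with TMM and tested over all 16201 genes kept, in 1 edgeR 4.0.16 quasi-likelihood fit of all 14 libraries without covariates (R 4.3.3, two-sided, Benjamini-Hochberg, threshold 0.05). Intervals are at 95%. Correlations used log2 CPM with a prior count of 2 and 100000 resamples. The fit was also run on simulated counts. That outcome is not reported here, and no statement on power rests on it. DESeq2 1.42.0, other scalings and filters, each library left out and a replicate block were alternatives. The members and gene lists were chosen with earlier results of these data known. Genes outside the 8 were named by fixed rules: the highest mean level, the smallest p per comparison or the closest pattern, with Jag1, Notch2 and the genes too sparse to test, or highest in Homo 2, added after their values were seen. Transcript lengths and chromosomes came from GENCODE M21 (GRCm38), and no coordinates were carried between builds. P-values measure the spread between these mice. Correlations between same-numbered libraries of different genotypes ran from -0.0918 to 0.149, with 2 of 12 over 0.1. Differently numbered libraries were not correlated for reference, so this check cannot decide whether the numbers pair libraries.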

Additional observations from a re-analysis of the deposited data

Results flagged for a closer look

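Krt19 in the library Homo 4 stood at 1.26 CPM, while the next of the 4 Homo livers stood at 0.613 CPM, so that this gap made up 0.972 of the range of the group. The value rests on 23 counts, with an exact Poisson interval of 0.800 to 1.89 CPM that covers counting error only, in the library with the lowest total. Of 24 groups of a member and a genotype examined, 1 stood out in this way, and chance gives about 1.2.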

How the results depend on the processing

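None of the 24 member fold changes was called in any of 490 alternative values (smallest adjusted p = 0.672), 476 kept their direction and 14 reversed. With the library total alone Bicc1 in Homo over WT had a log2 fold change of 0.019. Leaving out 1 library gave log2 ranges that crossed 0 for Bicc1 (-0.087 to 0.019), Krt19 (-0.18 to 0.30) and Spp1 (-0.27 to 0.56) in Homo over WT, for Krt19 (-0.097 to 0.28), Epcam (-0.48 to 0.10) and Pkhd1 (-0.0029 to 0.16) in Het over WT, and for Krt19 (-0.29 to 0.24), Epcam (-0.46 to 0.061) and Spp1 (-0.37 to 0.46) in Homo over Het. Over all genes, calls in Homo against WT, in Het against WT and in Homo against Het numbered 36, 9 and 5, and 62, 32 and 17 with DESeq2. Het against WT had 23 without a filter, and Homo against Het had 2 with only those groups fitted. With the replicate block, Homo against WT had 19 calls and Homo against Het 2, and whether the numbers pair libraries was not settled. Without 1 library the counts ran from 23 (without Homo 1) to 40, from 8 to 11 and from 4 to 7. The cause of these shifts was not tested. No member pair was correlated past the threshold under any scaling, prior count or omission run. Intervals include a change of 1.5-fold or more in every comparison for Krt7, Krt19, Epcam and Anxa13, at 2 to 48 counts per library, and also for the well-counted Sox9 and Spp1. A filter of 1 CPM in 4 libraries removed the first 4 genes and gave no value for them. Fits of only the groups compared gave no value for Anxa13 in Homo against WT and in Homo against Het, where it did not pass the filter. The spread without each library and the marker sums without their leading gene were added after seeing the data.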
